A study of Mus musculus with 2 samples.

Results

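Tumor B cells, the small fraction of B lymphocytes among CD45+ leukocytes of the tumor, were chosen by their unique molecular identifiers (UMIs, each standing for 1 captured transcript molecule) in 2 droplet single-cell libraries. A barcode was kept if it had 200 or more genes and no more than 10% of its UMIs from mitochondrial genes, and it was called a B cell with at least 3 UMIs in sum of Cd79a, Cd79b and Ms4a1, no UMI of Cd3d, Cd3e or Cd3g, and fewer than 10 UMIs in sum of C1qa, C1qb and C1qc. The rule found 130 B cells among 20407 deposited barcodes, 74 in the MWA library and 56 in the MWA plus TIGIT library. Because measured UMIs of these genes chose the cells, their levels are given as a description.

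MC38 mouse colon cancer cells were grown under the skin of both flanks of male C57BL/6 mice aged 6 to 8 weeks. In both groups the right tumor received microwave ablation (MWA), which destroys tissue by heat, at a volume of about 300 mm3. The CD45+ cells came from the untreated left tumor on day 8 after MWA. The MWA plus TIGIT group also received TIGIT blockade into the peritoneum, which the labels give as 3 doses at intervals of 3 days from day 1. In its tumor growth experiment the study gave the MWA group an isotype control antibody. The label of the MWA library used here names MWA only. Each group was 1 library, and the number of mice behind each was not given in the sources used here. No untreated tumor and no TIGIT blockade alone were among these libraries. With 1 library per group there is no test between the groups. The intervals below are 95% intervals that cover counting error only, not the variation between mice, sorts or libraries. Those of log2 ratios take each UMI as a separate count, so they also leave out variation between cells and are too narrow where few cells hold most UMIs.

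B cells recognise antigen through the B cell receptor, a membrane immunoglobulin of paired heavy and light chains that signals through CD79A and CD79B. MS4A1 is the surface protein CD20. A resting mature B cell carries IgM and IgD with either a kappa or a lambda light chain, and recirculates through lymphoid follicles. After activation a cell can switch to IgG or IgA, and an antibody-secreting cell turns most of its transcription over to immunoglobulin while CD20, MHC class II and the factor PAX5 are lost. TIGIT is an inhibitory receptor of T cells and NK cells that binds the ligand PVR on other cells.

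The MWA library held 10217 barcodes with 66152465 UMIs, of which 10037 were kept with a median of 5747 UMIs, and the MWA plus TIGIT library held 10190 barcodes with 78751205 UMIs, of which 9913 were kept with a median of 6838. The libraries shared 37 barcode sequences, and 1 B cell of the MWA library carried a shared barcode. B cells were shallow, with a lowest, median and highest depth of 730, 1868 and 7088 UMIs in the MWA library and of 1430, 2422 and 24046 in the MWA plus TIGIT library. T cells were barcodes with 3 or more Cd3 UMIs and fewer than 10 C1q UMIs, and macrophages had at least 10 C1q UMIs and no Cd3 UMI. Both classes allowed no UMI of Cd79a, Cd79b or Ms4a1. T cells had medians of 3574 and 3721 UMIs, and macrophages of 8516 and 10451.5. The B cells of both libraries summed to 152964 and 192863 UMIs.

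B cells made up 0.737% of kept barcodes in the MWA library (74 of 10037, interval 0.579 to 0.925) and 0.565% in the MWA plus TIGIT library (56 of 9913, interval 0.427 to 0.733). The difference was -0.172 percentage points, with an interval from -0.405 to 0.0583 that includes 0. Per 100 T cells there were 1.96 and 1.55 B cells, a ratio of 0.792 (interval 0.550 to 1.14). A lower share in the MWA plus TIGIT library was therefore not separated from counting error.

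The limits on Cd3 and C1q bore on this comparison. At least 3 marker UMIs with no such limit were found in 90 kept barcodes of each library, 0.897% and 0.908%, a difference of 0.0112 points (interval -0.259 to 0.282). Of these, 8 and 15 had a Cd3 UMI and 8 and 24 had at least 10 C1q UMIs, with 0 and 5 barcodes counted under both. Those over the C1q limit were deep, with medians of 11150.5 and 14221 UMIs, while those with a Cd3 UMI had medians of 3298.5 and 8643. Just inside the marker limit stood 6 and 4 barcodes with 3 marker UMIs, and just outside it stood 1 and 3 barcodes with 2 marker UMIs that met the other limits. A C1q UMI was present in 45 of the 74 and 39 of the 56 B cells, and a rule that allowed none left 29 and 17 cells.

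**Figure D1:**
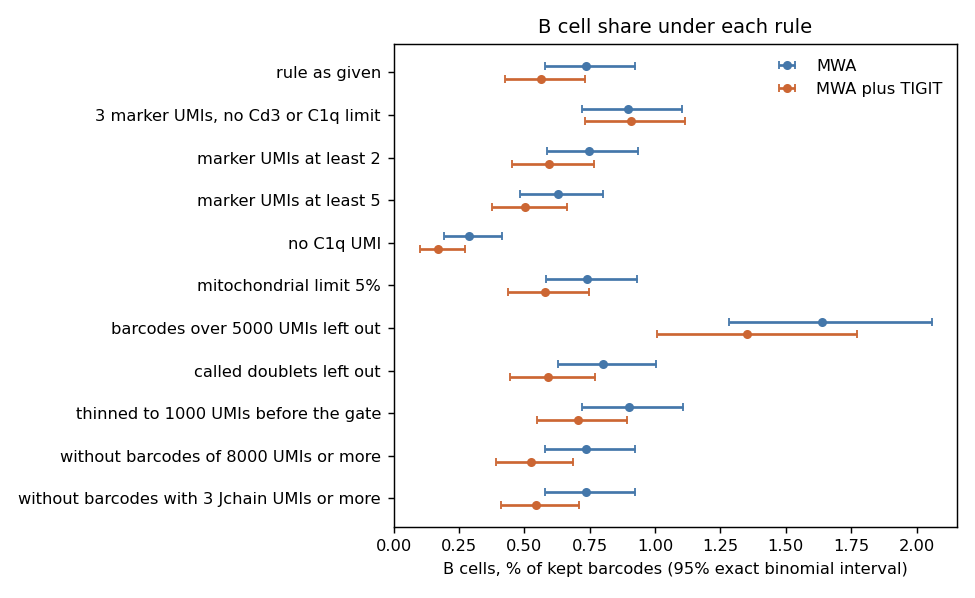
B cells as a percentage of kept barcodes (x axis) under each form of the rule (y axis), with MWA in blue and MWA plus TIGIT in orange, points for the share and bars for its exact binomial 95% interval. The intervals of the libraries overlap under each form, the shares are 0.737% and 0.565% under the rule as given, and they are 0.897% and 0.908% with no Cd3 or C1q limit.

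The genes of the rule, which are a description, were joined in most cells by other B cell genes. The marker sum had a median of 8 UMIs in the MWA library and 10 in the MWA plus TIGIT library, with Cd79a in 72 of 74 and 55 of 56 cells, Cd79b in 68 and 54, and Ms4a1 in 48 and 38. Outside the rule, Ebf1, which encodes a factor of B lineage commitment, was found in 64 of 74 and 50 of 56 cells. Pax5, the factor that maintains B cell identity, was found in 18 of 74 and 15 of 56 cells. The label did not hold for 1 member of the MWA plus TIGIT library, a barcode of 8400 UMIs with 0 Igkc, 0 Ebf1 and 0 Pax5 UMIs and 55 UMIs of the myeloid gene Tyrobp.

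Compared with all other kept barcodes of its own library, the MWA B cells had 195 of 789 genes tested at least 2-fold higher (24.7%) and 77 at least 2-fold lower (9.76%), and the MWA plus TIGIT B cells had 166 of 969 higher (17.1%) and 118 lower (12.2%). A gene was tested with at least 20 UMIs in the B cells, and its level is UMIs per 1e6 UMIs of the class (CPM). Because the rule chose the cells, these counts describe the cells and test nothing. The 20 genes with the highest fold in the MWA library, outside the rule and the variable segments, were 56.5-fold to 3924-fold higher there. All 20 were also at least 2-fold higher in the B cells of the MWA plus TIGIT library, by 30.9-fold to 1258-fold. Its B cells under 8000 UMIs had all 20 at least 28.3-fold higher than all other kept barcodes, those of 8000 UMIs or more included.

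These 20 genes were led by light chains, surface receptors and lineage factors. Iglc1, a lambda constant gene, was 3924-fold higher in the MWA library and 692-fold higher in the MWA plus TIGIT library. In the latter, cells of 24046 and 15241 UMIs held 45 and 17 of its 104 UMIs, and in B cells under 8000 UMIs it was 203-fold higher. Fcer2a, the low-affinity IgE receptor CD23 of follicular B cells, was 3013-fold and 653-fold higher. Fcmr, the Fc receptor for IgM, was 1922-fold and 721-fold higher, and Ebf1 was 1872-fold and 828-fold higher. Bank1, an adaptor of B cell receptor signalling, was 151-fold and 142-fold higher. H2-Ob and H2-DMb2, chains of the molecules that edit peptide loading onto MHC class II, were 89.8-fold and 56.5-fold higher in the MWA library and 44.3-fold and 30.9-fold higher in the other.

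By role, 7 of the 10 naive follicular genes reached 20 UMIs in B cells of the MWA library and 6 in the MWA plus TIGIT library, and each of these was at least 2-fold higher in B cells. Of the 14 trafficking genes (receptors for lymph node homing and egress) 6 and 5 were tested, and 6 and 5 were higher. Of the 20 B cell transcription factors 11 and 9 were tested, and 10 and 7 were higher. Of the 11 MHC class II genes 8 and 10 were tested, and 6 and 4 were higher. Of the 11 survival genes 2 were tested in each library and 0 were higher. No gene of the germinal center list reached 20 UMIs. Among all genes tested 24.7% and 17.1% were at least 2-fold higher. A gene with few UMIs in B cells could not enter these counts, so they describe the genes that passed and support nothing about the lists.

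Levels of Cd74 and H2-Aa in B cells lay above those of all other kept barcodes and under those of dendritic cells (at least 3 UMIs of dendritic cell genes). Cd74, the invariant chain that escorts MHC class II, was at 10885 CPM in MWA B cells and 9525 CPM in MWA plus TIGIT B cells, against 12363 and 12412 CPM in dendritic cells, 6159 and 6984 CPM in macrophages and 285 and 294 CPM in T cells. H2-Aa, an MHC class II alpha chain, was at 3955 and 3386 CPM in B cells, 6270 and 5593 CPM in dendritic cells, and 2441 and 2619 CPM in macrophages. Cd74 was present in all 74 and all 56 B cells, and H2-Aa in 74 and 55. Against all other kept barcodes, Cd74 was 2.53-fold and 1.83-fold higher in B cells and H2-Aa 2.30-fold and 1.74-fold. H2-DMb1, a chain of the peptide editor H2-DM, was instead at 0.530-fold and 0.583-fold of their level.

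Transcripts of other cell types were present in the B cells at low level. The 10 macrophage markers summed to 1994 CPM in MWA B cells and 1872 CPM in MWA plus TIGIT B cells, against 33343 and 40217 CPM in macrophages. Each of the 10 genes had a UMI somewhere in the B cells of each library. Any UMI of the list was found in 69 of 74 and 54 of 56 B cells, with a median of 3 and 4 UMIs per cell. T cells held 1226 CPM of the same list in the MWA library. The 10 T cell markers summed to 261 and 207 CPM in B cells against 5276 and 6047 CPM in T cells, and Cd4 and Cd8a were at 0 UMIs in both. The 8 erythroid and tumor markers had 0 and 5 UMIs. The part of these transcripts in the results was not tested.

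**Figure D2:**
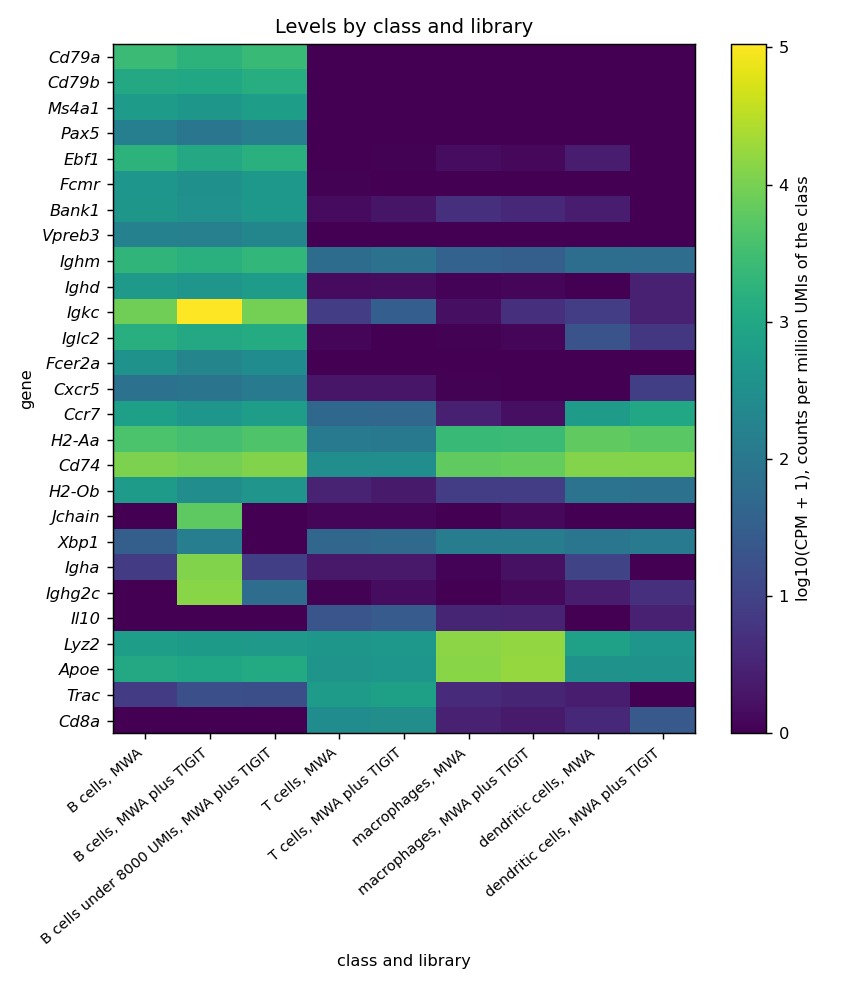
Levels of 27 genes (y axis) in each class and library (x axis), as log10(CPM + 1) on the color scale, where CPM is UMIs per 1e6 UMIs of the class. Pax5 and Fcer2a are bright in B cells and dark in T cells, macrophages and dendritic cells. For Cd79a, Cd79b and Ms4a1 this contrast was fixed by the choice of cells, since those classes allowed no UMI of them. Jchain is at 5952 CPM in all MWA plus TIGIT B cells and at 0 in those under 8000 UMIs.

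Light chains showed that most B cells used kappa. A cell was put in the class with the most light chain UMIs, kappa (Igkc) or lambda (the sum of Iglc1, Iglc2 and Iglc3), if that class held at least 3. In the MWA library 66 of 74 cells were kappa (89.2%, interval 79.8 to 95.2), 7 were lambda and 1 had no class. In the MWA plus TIGIT library 52 of 56 were kappa (92.9%, interval 82.7 to 98.0), 3 were lambda and 1 had no class. The intervals of the kappa share overlapped.

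Kappa and lambda UMIs were usually found together. An Igkc UMI and a lambda UMI were both present in 67 of 74 and 53 of 56 cells. Kappa cells had a median of 16.5 and 22.5 Igkc UMIs against 4 and 5 lambda UMIs, and lambda cells had 9 to 34 lambda UMIs with a median of 23 in the MWA library and 8, 10 and 18 in the other. Igkc was also found outside the B cells, in 1.67% and 8.51% of T cells and in 0.529% and 3.72% of macrophages, which are deeper. After each cell was thinned to 1000 UMIs, Igkc was found in 94.4% and 94.6% of B cells and in 0.481% and 3.01% of T cells.

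**Figure D3:**
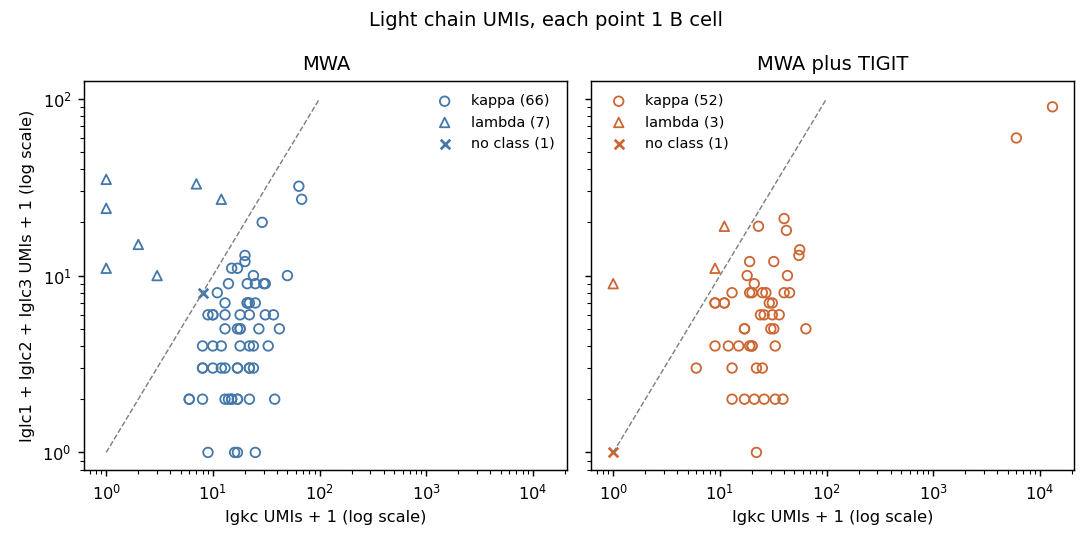
Lambda UMIs (Iglc1, Iglc2 and Iglc3 in sum, plus 1, y axis) against Igkc UMIs (plus 1, x axis), both on log scales, with 1 point per B cell, MWA left and MWA plus TIGIT right. Of the cells, 66 and 52 are kappa, 7 and 3 are lambda and 1 and 1 have no class, the dashed line marks equal UMIs, and 2 MWA plus TIGIT cells lie far right with 6018 and 13128 Igkc UMIs.

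Heavy chains placed most B cells in the IgM class. With the same limit of 3 UMIs, the MWA library had 45 IgM, 2 IgD, 2 IgG and 25 cells of no class, and the MWA plus TIGIT library had 41 IgM, 5 IgD, 4 IgG, 1 IgA and 5 of no class. The IgM share was 60.8% (interval 48.8 to 72.0) and 73.2% (interval 59.7 to 84.2). Ighm UMIs were present in 67 of 74 and 49 of 56 B cells and Ighd UMIs in 47 and 37, and both together in 46 and 36. Ighm was also found in 17.03% and 21.0% of T cells and in 18.1% and 17.4% of macrophages, so a B cell was not called IgM from 1 UMI. Ighd was found in 0.185% and 0.166% of T cells.

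Cells switched to IgG were rare. The 2 IgG cells of the MWA library, with 2045 and 7088 UMIs, had 4 and 6 Ighg2b UMIs. Of the 4 IgG cells of the other library, 1 with 1899 UMIs had 2 Ighg2b and 2 Ighg2c UMIs, 1 with 3299 UMIs had 9 Ighg3 UMIs, and 1 with 5564 UMIs, which was called a doublet, had 6 Ighg2b and 6 Ighg2c UMIs. The last of the 4 had 24046 UMIs and was an antibody-secreting cell. IgG subclasses share sequence, so their split is uncertain.

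Cells with the transcripts of antibody secretion, at least 3 Jchain and 50 light chain UMIs, were 2 of 56 B cells of the MWA plus TIGIT library (3.57%, interval 0.435 to 12.3). None was found among the 74 B cells of the MWA library, which allows a share of up to 4.05% by the limit of 3 counts and of up to 4.86% by the exact interval. Both limit barcodes with these UMIs, not cells that express the genes. The first had 15241 UMIs, of which 62.4% were immunoglobulin, with 6018 Igkc, 2301 Igha and 910 Jchain UMIs. Immunoglobulin shares and totals here and below count Jchain with the immunoglobulin genes, and Jchain was 5.97% of the UMIs of this cell. Jchain encodes the chain that links IgA and IgM into polymers. The other had 24046 UMIs, of which 68.1% were immunoglobulin, with 13128 Igkc, 2639 Ighg2c and 238 Jchain UMIs. In build GRCm38, GENCODE vM21 places the kappa constant gene Igkc at chr6:70726435-70726966 on the plus strand, and the heavy chain constant genes Igha at chr12:113254830-113260236 and Ighg2c at chr12:113285325-113288932 on the minus strand.

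Both secreting cells carried transcripts of the secretory pathway and lacked several of those of mature B cells. Mzb1, a chaperone of immunoglobulin assembly, had 58 UMIs in the IgA cell and 99 in the IgG2c cell. Xbp1, a factor that expands the secretory apparatus, had 15 and 8, and Ssr4, a subunit of the translocon complex, had 41 and 84. Sdc1, the plasma cell surface proteoglycan CD138, had 3 and 4. Among other plasma cell genes, Derl3 had 3 and 1 UMIs, Tnfrsf17 had 1 and 0, and Prdm1 had 0 in both. Ms4a1, Pax5, Ebf1, Ighm and Ighd were at 0 UMIs in both cells. Of the MHC class II chains, H2-Aa had 1 and 0 UMIs, H2-Ab1 had 3 and 3, and H2-Eb1 had 3 and 5. Cd79b, with 2 and 4 UMIs, and Cd74, with 51 and 53, were still present. Both passed the rule mostly by Cd79a, with 10 and 12 UMIs.

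Each secreting cell had its own leading pair of variable segments, which are printed here. The antibody sequence of either cell was not read. The IgA cell had 128 Ighv3-6 and 75 Igkv8-30 UMIs, and the IgG2c cell had 64 Ighv8-8 and 198 Igkv1-110 UMIs. The last 300 bases of the second exon of each, which holds the variable domain, are given 5′ to 3′ on the gene's strand in germline form, from the GENCODE vM21 transcripts of build GRCm38, and not as read from the cells. Capitals mark the codons for tyrosine, tyrosine or phenylalanine, and cysteine that precede the third complementarity-determining region. The stretch of Ighv3-6 lies at chr12:114288152-114288451 on the minus strand, Igkv8-30 at chr6:70117061-70117360 on the minus strand, Ighv8-8 at chr12:115294062-115294361 on the minus strand and Igkv1-110 at chr6:68270968-68271267 on the plus strand.
Ighv3-6: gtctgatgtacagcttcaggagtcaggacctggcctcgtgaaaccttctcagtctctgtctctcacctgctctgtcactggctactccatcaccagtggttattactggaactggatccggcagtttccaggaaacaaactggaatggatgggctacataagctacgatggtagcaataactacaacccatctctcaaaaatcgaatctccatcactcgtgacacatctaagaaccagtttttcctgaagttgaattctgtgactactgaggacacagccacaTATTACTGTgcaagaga
Igkv8-30: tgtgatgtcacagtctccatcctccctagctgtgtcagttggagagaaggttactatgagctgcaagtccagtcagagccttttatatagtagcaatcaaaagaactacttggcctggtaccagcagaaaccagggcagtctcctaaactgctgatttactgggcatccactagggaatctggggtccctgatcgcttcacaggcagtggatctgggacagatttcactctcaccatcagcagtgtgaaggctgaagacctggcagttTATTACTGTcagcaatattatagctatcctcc
Ighv8-8: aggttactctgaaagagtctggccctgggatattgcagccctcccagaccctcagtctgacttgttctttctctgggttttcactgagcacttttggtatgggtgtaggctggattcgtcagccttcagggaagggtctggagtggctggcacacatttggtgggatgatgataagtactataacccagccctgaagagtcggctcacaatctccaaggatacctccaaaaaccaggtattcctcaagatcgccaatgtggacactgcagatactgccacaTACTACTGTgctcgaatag
Igkv1-110: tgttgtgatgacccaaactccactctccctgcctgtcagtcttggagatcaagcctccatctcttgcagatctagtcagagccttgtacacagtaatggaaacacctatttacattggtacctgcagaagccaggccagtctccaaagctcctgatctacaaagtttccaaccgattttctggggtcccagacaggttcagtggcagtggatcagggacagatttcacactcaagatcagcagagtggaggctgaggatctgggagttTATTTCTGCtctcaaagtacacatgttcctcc

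These segments were nearly private to their cells. Over all kept barcodes of the MWA plus TIGIT library, Ighv3-6 had 133 UMIs, of which 128 were in the IgA cell, and Igkv8-30 had 76, of which 75 were. Ighv8-8 had 64 UMIs, all in the IgG2c cell, and Igkv1-110 had 203, of which 198 were. In the MWA library the 4 segments had 1, 0, 0 and 2 UMIs. The other B cells gave few variable segments. A heavy segment with at least 2 UMIs was found in 7 of the 130 cells, over 6 segments, and a light segment in 11 cells, over 11 segments. Ighv3-6 led 2 cells, both of the MWA plus TIGIT library, and each other segment led 1. Variable segments share sequence with close copies, so their names are uncertain.

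**Figure D4:**
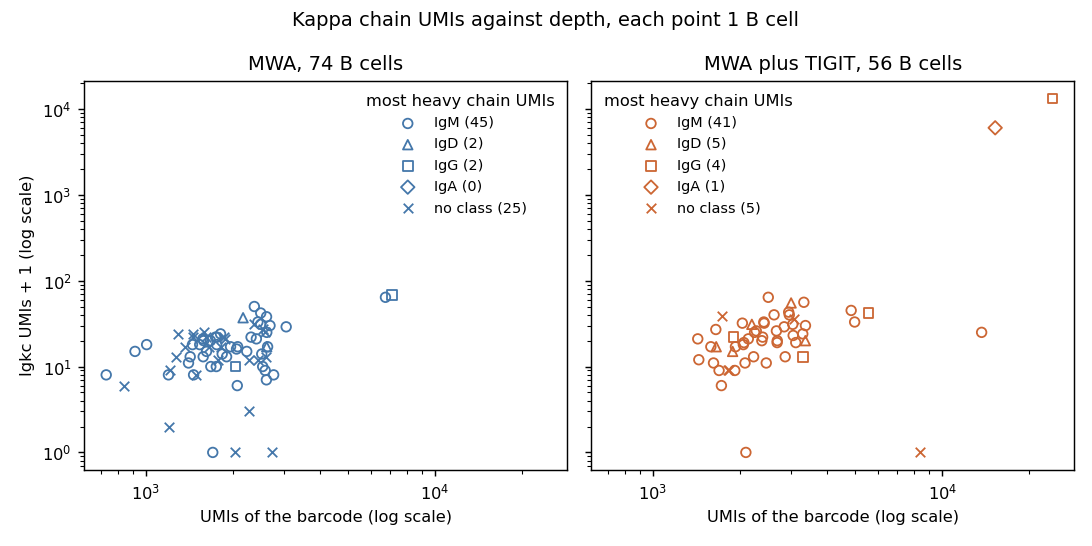
Igkc UMIs plus 1 (y axis) against UMIs of the barcode (x axis), both on log scales, with 1 point per B cell, the symbol giving the heavy chain class, MWA left and MWA plus TIGIT right. The IgA cell (15241 UMIs) and the IgG2c cell (24046 UMIs) stand above all others, while the cells of the MWA library reach 67 Igkc UMIs.

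Barcodes of at least 8000 UMIs weighed on every sum in the MWA plus TIGIT library. These numbered 4, with 0 in the MWA library, and held 61370 of the 192863 B cell UMIs (31.8%). Beside both secreting cells, 1 barcode of 8400 UMIs passed the rule with 3 Cd79b UMIs and had no Igkc UMI, with 34 Lyz2, 55 Tyrobp and 46 Cst3 UMIs, which are genes of myeloid cells. Another of 13683 UMIs was called a doublet and had 154 Cst3 and 80 H2-Aa UMIs beside 24 Igkc and 14 Ighm UMIs. Immunoglobulin was 1.46% of B cell UMIs in the MWA library and 14.5% in the MWA plus TIGIT library, and 1.5% there in the cells under 8000 UMIs. Most comparisons of the libraries are therefore given with and without these barcodes.

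Of 1853 genes with at least 20 UMIs over the B cells of both libraries, 88 were at least 2-fold higher (4.75%) and 98 at least 2-fold lower (5.29%) in the MWA plus TIGIT library, with a median log2 ratio of -0.11. Among cells under 8000 UMIs, 82 of 1590 genes were higher (5.16%) and 43 lower (2.7%), with a median of 0.05. With totals that leave out immunoglobulin genes, 153 were higher and 54 lower and all log2 ratios moved up by 0.20, so that 73.9% of the called genes were higher instead of 47.3%. With TMM factors 101 were higher and 75 lower, or 57.4% higher. Without replicates none of these genes is separated from variation between libraries.

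The genes with the largest differences were those of the secreting cells. Igkc went from 1305 UMIs in MWA B cells to 20394 in MWA plus TIGIT B cells, a log2 ratio of 3.63 (interval 3.55 to 3.71). Of the 20394, 13128 and 6018 UMIs were in 2 cells, a spread that the interval does not cover. In cells under 8000 UMIs Igkc stood at 1305 and 1224 UMIs and 0.13 (0.01 to 0.24). Jchain had 0 and 1148 UMIs, at least 304-fold higher, with 79.3% of its UMIs in 1 cell. Ighg2c had 0 and 2647 UMIs, at least 700-fold higher, with 99.7% in 1 cell, and Igha had 1 and 2304 UMIs, with 2301 in 1 cell. Ly6c2, a surface antigen of the Ly6 family, had 0 and 79 UMIs, at least 20.9-fold higher, with 77.2% in 1 cell. These folds set the MWA library at the floor of 3 UMIs over its B cells, which is 19.6 CPM. The exact 95% intervals reach lower and start at log2 ratios of 7.95 for Jchain, 9.15 for Ighg2c and 4.05 for Ly6c2. In cells under 8000 UMIs, Jchain had 0 UMIs in both libraries, Ighg2c 0 and 8, and Ly6c2 0 and 12.

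Lower in the MWA plus TIGIT library were Stat4, Fcrla, Otulin, Snhg1 and Tsc22d3. Stat4, a factor of cytokine signalling, had 39 and 14 UMIs, a log2 ratio of -1.81 (interval -2.81 to -0.90), and -1.37 (-2.40 to -0.43) in cells under 8000 UMIs. Fcrla, an Fc receptor-like protein of B cells, had 38 and 19 UMIs, and -1.33 and -0.86. Otulin, a deubiquitinase of linear chains, stood at -1.30 and -0.89, and the RNA Snhg1 at -1.29 and -1.04. Tsc22d3, a glucocorticoid-induced factor, had 84 and 46 UMIs, and -1.20 and -0.75. The 5 were picked as the lowest ratios with an interval excluding 0 among all B cells, so that outcome was fixed by the choice. In cells under 8000 UMIs all 5 were also lower with intervals that excluded 0. That setting keeps the same 74 MWA cells and 52 of the 56 others, so it is no independent check. Among the 29 and 17 B cells with no C1q UMI the intervals of all 5 included 0, and Tsc22d3 stood at -0.0890 (interval -1.09 to 0.86) and Stat4 at -1.09 (interval -3.16 to 0.61). Without barcodes over 5000 UMIs the interval of Fcrla also included 0 (-0.64, interval -1.57 to 0.24).

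Among cells under 8000 UMIs, the largest differences were sought where 1 library or both reached 200 CPM and the interval excluded 0. Clec2d, a C-type lectin, had 15 and 34 UMIs (log2 ratio 1.40, interval 0.48 to 2.38). Sltm, a nuclear RNA-binding protein, had 16 and 34 (1.31), Itm2b, a membrane protein, 34 and 68 (1.22), Ptp4a2, a phosphatase, 24 and 46 (1.16), and Nktr 19 and 35 (1.10). With all B cells these 5 stood at 1.04, 0.95, 1.45, 0.84 and 0.67, and the interval of Nktr, -0.16 to 1.54, included 0. Lower were Iglc1 with 155 and 42 UMIs (-1.67, interval -2.19 to -1.17), Vim, the intermediate filament vimentin, with 70 and 24 (-1.33), Dusp1, a phosphatase of MAP kinases, with 37 and 14 (-1.18), and Cotl1, an actin-binding protein, with 43 and 17 (-1.12), beside Stat4. With all B cells Iglc1 stood at -0.91, Vim at -0.82, Dusp1 at -0.90 and Cotl1 at -1.06. The Iglc1 difference rests on few cells, since the 7 lambda cells of the MWA library held 96 of its 155 UMIs (61.9%). In the MWA library 1 cell held 14 of the 43 Cotl1 UMIs and 1 cell held 11 of the 70 Vim UMIs. In the other, 1 cell held 8 of the 35 Nktr UMIs. With all B cells weighted equally Cotl1 stood at -0.68, Vim at -1.15 and Nktr at 0.57.

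The medians of B cell identity and signalling genes lay on opposite sides of 0 with and without the deep barcodes. The 16 identity genes tested include Cd79a, Cd79b and Ms4a1, whose UMIs chose the cells, so the list is in part a description. Of the 16, 0 were at least 2-fold higher and 1 lower, with a median log2 ratio of -0.41. In cells under 8000 UMIs 1 was higher and 0 lower, with a median of 0.12. Over all genes tested 4.75% were higher and 5.29% lower, and 5.16% and 2.7% in cells under 8000 UMIs, so 1 gene of 16 is a share near the background. Cd79a, a gene of the rule, went from 405 to 337 UMIs (-0.60) and stood at -0.15 without the deep barcodes. Ebf1, outside the rule, went from 274 to 204 (-0.76), then -0.23. The 13 genes tested of B cell receptor signalling had none past 2-fold, with a median of -0.09, and in cells under 8000 UMIs 1 of 12 was higher, Btk, the kinase downstream of the receptor, at 7 and 17 UMIs (1.5, interval 0.16 to 3.01). Inhibitors of receptor signalling, which are receptors and the phosphatases Ptpn6 and Inpp5d, had medians of 0.20 and 0.50, with 2 of 7 higher in cells under 8000 UMIs. These were Cd72 (1.34, interval 0.26 to 2.52) and Fcrl1 (1.11, interval -0.31 to 2.68).

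The medians of resting B cell lists lay nearer 0 without the deep barcodes. Their counts stand beside 4.75% higher and 5.29% lower over all genes tested, and 5.16% and 2.7% in cells under 8000 UMIs. The naive follicular list had 0 of 9 genes higher and 1 lower, with a median of -0.65, and 0 and 0 with a median of -0.09 in cells under 8000 UMIs. Fcer2a had 56 and 37 UMIs (-0.93, then -0.38), Ccr7, the homing receptor for lymph nodes, 103 and 83 (-0.65, then -0.09), and Klf2, a factor of quiescence and recirculation, 193 and 152 (-0.68, then -0.23). Of 20 transcription factors, 0 were higher and 3 lower with a median of -0.50, and in cells under 8000 UMIs 1 of 19 was lower with a median of -0.07. That gene was Id3, an inhibitor of E proteins, with 28 and 12 UMIs (-1.56, interval -2.66 to -0.53) and 28 and 11 (-1.13, interval -2.28 to -0.07). MHC class II had 0 of 11 higher and 1 lower, with a median of -0.23 and, in cells under 8000 UMIs, 1 higher, 0 lower and 0.11. H2-Ob, which was lower at -1.01 with all B cells, stood at -0.51 without the deep barcodes.

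Immediate early genes, which answer receptor signals and tissue handling within minutes, were mixed. Of 14 tested, 2 were higher and 1 lower with a median of -0.10. In cells under 8000 UMIs 1 was higher and 2 lower with a median of -0.04. The shares over all genes tested were 4.75% higher and 5.29% lower, and 5.16% and 2.7% in cells under 8000 UMIs. Egr1 had 11 and 40 UMIs (1.53, interval 0.54 to 2.64) and 11 and 22 (1.22, interval 0.11 to 2.41). Barcodes called doublets, of 13683 and 5564 UMIs, held 15 and 10 of the 40 UMIs, and without them Egr1 stood at 0.26 (interval -0.96 to 1.53). Jun had 35 and 97 UMIs (1.14) but 35 and 41 (0.45) without the deep barcodes. Jund had 437 and 307 UMIs (-0.84) and 437 and 240 (-0.65), which is under 2-fold. Nfkbid, an inhibitor of NF-kappaB, was lower with 14 and 6 UMIs (-1.56, then -1.002), and Dusp1 joined it in cells under 8000 UMIs.

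Few interferon genes were tested, and their medians were above 0. For comparison, 4.75% of all genes tested were higher and 5.29% lower, and 5.16% and 2.7% in cells under 8000 UMIs. The type I interferon list had 0 of 6 past 2-fold in either direction with a median of 0.14, and 0.18 with 1 higher (Ifi213, 7 and 14 UMIs) in cells under 8000 UMIs. Of 4 genes tested of the interferon-gamma list, 0 were past 2-fold with a median of 0.44, and 1 in cells under 8000 UMIs, Irf1, a factor induced by interferon, with 11 and 20 UMIs (1.08, interval -0.04 to 2.29) and a median of 0.34. Costimulation genes had 0 of 4 past 2-fold in both settings, with Cd83, an activation marker, at 59 and 82 UMIs (0.14) and 59 and 76 (0.58, interval 0.07 to 1.10).

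The medians of homing and survival genes also lay nearer 0 without the deep barcodes. As a background, 4.75% of all genes tested were higher and 5.29% lower, and 5.16% and 2.7% in cells under 8000 UMIs. The trafficking list had 0 of 8 genes higher and 1 lower with a median of -0.33, and 0 and 0 with 0.03 in cells under 8000 UMIs. S1pr1, the receptor for egress from lymphoid tissue, had 33 and 20 UMIs (-1.06, interval -1.93 to -0.21), then 33 and 19 (-0.58, interval -1.47 to 0.28). None of the 6 survival genes tested was past 2-fold, with medians of -0.36 and -0.05, and Tnfrsf13c, the BAFF receptor, had 16 and 14 UMIs. Of 6 heat shock genes none was past 2-fold, with medians of -0.47 and -0.19. Plac8, of the marginal zone list, had 143 and 96 UMIs (-0.91, then -0.47), and Cd5, a marker of B-1 cells, had 0 in both libraries. The plasma cell list had 3 of 4 genes higher with a median of 1.70, and 0 of 2 with 0.01 in cells under 8000 UMIs.

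TIGIT and its ligands were at or near 0 in B cells. Tigit, Nectin2 and Nectin3 had 0 UMIs in both libraries, which allows up to 19.6 and 15.6 CPM, Pvr had 0 and 1, and Cd226, the activating receptor for PVR, 0 and 1. Cd274, which encodes PD-L1, had 7 and 10 UMIs, and Pdcd1lg2, which encodes PD-L2, 3 and 3. Btla, an inhibitory receptor of lymphocytes, had 13 and 18, and Cd200 13 and 10. In cells under 8000 UMIs of the MWA plus TIGIT library Pvr had 1 UMI, Cd226 0, Cd274 9, Pdcd1lg2 3, Btla 17 and Cd200 8. Of the 15 TIGIT axis and checkpoint genes, 2 reached 20 UMIs over both libraries, Btla and Cd200, and 0 of these were past 2-fold. Their median log2 ratio was -0.29, and 0.06 in cells under 8000 UMIs. Over all genes tested 4.75% were higher and 5.29% lower, and 5.16% and 2.7% in cells under 8000 UMIs. The other genes of the list had too few UMIs to be tested.

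Germinal center, cytokine and cycling genes were also sparse. S1pr2 and Rgs13 had 0 UMIs in both libraries, and the 10 germinal center genes summed to 13 and 17, and to 13 and 9 in cells under 8000 UMIs. Il10, Il6 and Tnf had 0 UMIs in both, while Ltb, a cytokine of lymphoid tissue organisation, had 68 and 76. Mki67, a marker of cycling cells, had 1 and 3 UMIs, and Top2a 3 and 4. In cells under 8000 UMIs of the MWA plus TIGIT library Ltb had 68 UMIs, Mki67 2 and Top2a 1. Zero or few UMIs in 152964 and 192863 do not show that a gene is absent.

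**Figure D5:**
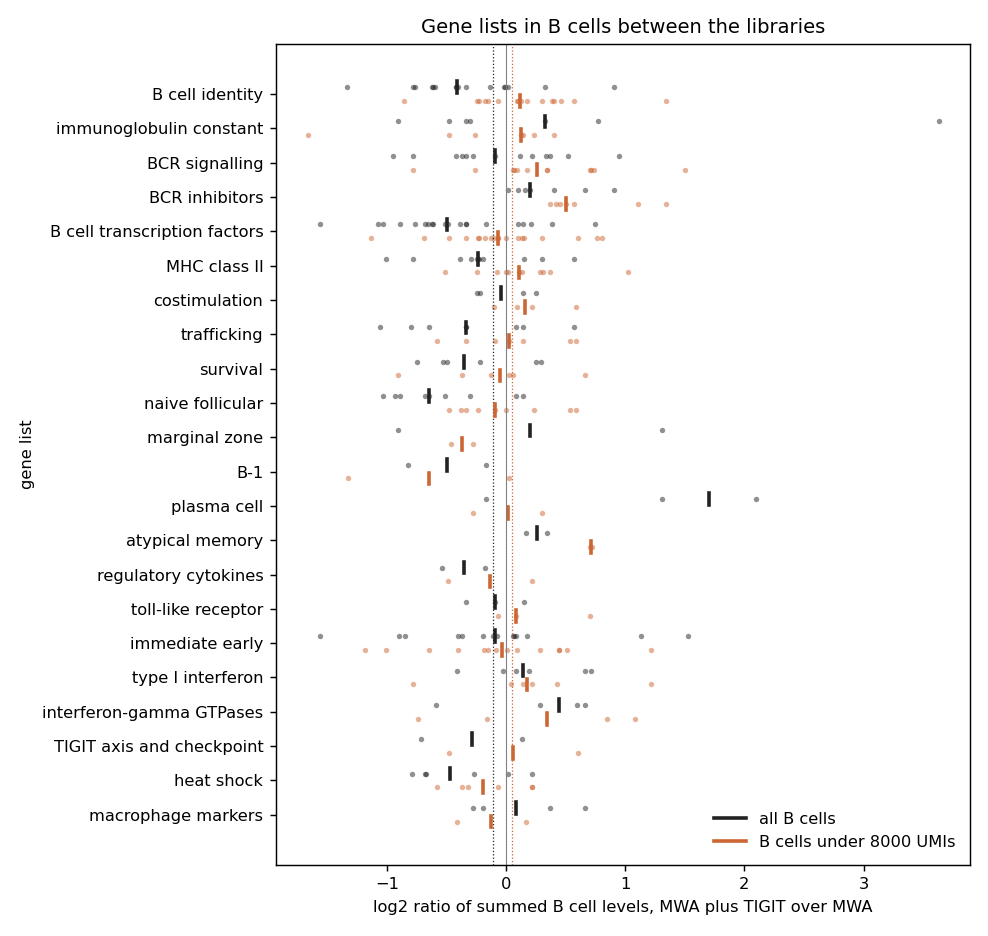
Log2 ratio of summed B cell levels, MWA plus TIGIT over MWA (x axis), for genes of each list with at least 2 tested genes (y axis), in black for all B cells and in orange for cells under 8000 UMIs, where points are genes, thick bars are list medians and dotted lines are the medians of all genes tested (-0.11 and 0.05). Genes with 0 UMIs in a library and Igha are not drawn, and the plasma cell median moves from 1.70 to 0.01 while the naive follicular median moves from -0.65 to -0.09.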

How the data were processed

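CD45+ cells were sorted by the authors from the left tumor and sequenced with the 10x Genomics 3′ v3.1 method. The authors deposited raw UMI counts of 32285 genes per barcode, aligned to mm10 (GRCm38). The processing notes give Cell Ranger 6.1.1 and the matrix header 4.0.0. The study's methods name Seurat and DoubletFinder, which were not run, and its limit of 5000 UMIs, which is an alternative here. No cells were removed as doublets in the main setting. A caller that compares each barcode with simulated doublets on 20 principal components called 806 and 786 barcodes (8.03% and 7.93%), among them 0 and 2 B cells.

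The members and gene lists were chosen with earlier results of these data known. UMIs were summed over B cells and scaled to CPM, that is per 1e6 UMIs of those cells. Ratios have exact conditional binomial intervals, shares exact Clopper-Pearson intervals, and the difference of shares combines them. A count of 0 was set at a floor of 3 UMIs. Named genes are list members, the 5 highest and 5 lowest log2 ratios between libraries (at least 20 UMIs and 200 CPM in a library, interval excluding 0), and the 20 highest folds over other barcodes. Ribosomal, mitochondrial, predicted, Rik and variable segment genes were left out of the second, and the rule's genes and variable segments of the third. The leaders among cells under 8000 UMIs and the printed exons were chosen after their values were seen. Alternatives were other marker, mitochondrial and UMI limits, no C1q UMI, called doublets left out, thinning, TMM factors (edgeR 4.0.16, R 4.3.3), totals without immunoglobulin, and other gene minimums. Leaving out barcodes of 8000 UMIs or more or with Jchain, dropping the Cd3 and C1q limits, and weighting cells equally, were added after seeing the data. Intervals and ratios were tested on simulated data. Python 3.11.15, numpy 2.4.6, scipy 1.17.1, pandas 2.3.3, scikit-learn 1.9.0 and matplotlib 3.10.9 were used.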

Additional observations from a re-analysis of the deposited data

How the results depend on the processing

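No paired analysis was possible because each group is 1 library. The difference in B cell share had an interval that included 0 under each alternative tried, but the shares themselves moved, from 0.171% with no C1q UMI to 1.35% without barcodes over 5000 UMIs in the MWA plus TIGIT library and from 0.289% to 1.64% in the MWA library. With no limit on Cd3 or C1q the difference stood at 0.0112 points. The kappa shares stayed within their counting intervals. List medians moved, that of the plasma cell list from 1.70 to 0.01 and that of identity genes from -0.41 to 0.12 without barcodes of 8000 UMIs or more. Counts of genes at least 2-fold apart moved more, but the number of genes tested moved as well. Between the libraries it was 1853 with all B cells and 1590 without barcodes of 8000 UMIs or more. For the other limits on cells or UMIs it is not given here, so those counts cannot be read as shares. With at least 2 marker UMIs 198 genes were higher. With no C1q UMI 14 were higher and 28 lower, and over other barcodes 65 were higher in the MWA library and 45 in the other. Lower genes were 45 without barcodes over 5000 UMIs, 43 without those of 8000 or more and 50 without those with 3 Jchain UMIs. Totals without immunoglobulin gave 153 higher and 54 lower. A minimum of 1 UMI gave 2496 higher and 2246 lower, and 1871 and 1614 over other barcodes, and a minimum of 50 gave 20 and 15. The IgM share of the MWA library was 72.4% with no C1q UMI and 77.0% with classes from 1 UMI. The cause of these moves was not tested.

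Tsc22d3 went from -1.20 to -0.0890 with no C1q UMI, and Egr1 from 1.53 to 0.26 without called doublets. Some log2 ratios of named genes changed sign. With no C1q UMI these were Cd74 at 0.29, Cd79a at 0.00144, Cotl1 at 0.20, Egr1 at -1.71, H2-Aa at 0.42, H2-Ab1 at 0.53, H2-Eb1 at 0.19, Klf2 at 0.37, Mef2c at 0.0467, Mzb1 at -0.089 and Sltm at -0.20. Without barcodes over 5000 UMIs they were Cd74 at 0.13, H2-Aa at 0.15, H2-Ab1 at 0.0472, H2-Eb1 at 0.0148, Ighm at 0.21 and Mzb1 at -0.27. Without barcodes of 8000 UMIs or more they were Cd74 at 0.11, Foxp1 at 0.00171, H2-Aa at 0.13, H2-Ab1 at 0.0123, Ighm at 0.14, Mzb1 at -0.28 and Ssr4 at -0.0844. Without barcodes with 3 Jchain UMIs they were Cd74 at 0.052, H2-Aa at 0.10, H2-Ab1 at 0.067, Igha at -0.00576, Igkc at -0.0702, Mzb1 at -0.50, Ssr4 at -0.00576 and Xbp1 at -0.33. With cells weighted equally they were Cd74 at 0.035, H2-Aa at 0.0521 and H2-Ab1 at 0.000985. With totals without immunoglobulin Cd74 was at 0.0118, and with at least 5 marker UMIs Il1b was at -0.0331. The cause of these was not tested. Depth limits the rest, since the median B cell held 1868 and 2422 UMIs.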

Other observations

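A further immunoglobulin-rich barcode of the MWA plus TIGIT library stood outside the B cell rule because of 8 Cd3 UMIs. It had 19344 UMIs and 2541 genes, of which 43.1% of UMIs were immunoglobulin, with 19 marker UMIs, 5410 Igkc, 2370 Ighm and 365 Jchain UMIs and 9 Trac UMIs. Ighv5-17 had 49 UMIs in it and Igkv3-5 had 86. It was not called a doublet, and it held 82.3% of the Igkc UMIs of all kept barcodes outside the B cells of that library. With it and the B cells of 8000 UMIs or more left out, Igkc in B cells under 8000 UMIs was 625-fold higher than in other barcodes. With all of these among the other barcodes it was 28.3-fold higher. No barcode outside the rule in the MWA library had at least 3 Jchain UMIs and 50 light chain UMIs.

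S100a8, a neutrophil gene, had 12 UMIs in the B cells of the MWA library, all in 1 cell of 1490 UMIs, and 0 in those of the other.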
